A study of Mus musculus with 12 samples.

Results

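Splicing factors and RNA helicases were followed through invariant natural killer T (iNKT) cells of mouse thymus and lung. The genes were chosen by symbol: the SR proteins (Srsf followed by a number), the hnRNP proteins (Hnrnp), the SF3 complex (Sf3a and Sf3b), the snRNP core proteins (Snrp), and the helicases whose symbols begin with Ddx or Dhx and a number, without Ddx58. Of the 24781 genes in the table, 105 met this rule: 11 SR proteins, 21 hnRNP proteins, 9 SF3 subunits, 12 snRNP core proteins, 36 DEAD-box helicases and 16 DEAH-box and related helicases.

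Each of the 12 libraries was made from 100 cells sorted from mice of 6 weeks, and every sort required T cell receptor beta, NK1.1, binding of the CD1d tetramer and CXCR6. The cells that also carried CD244 are the C2 subset and those that lacked it the C1 subset. Tissue and subset gave 4 groups of 3 libraries: CD244-positive and CD244-negative cells of the thymus, and the same subsets of the lung. The labels describe the replicates as separate library preparations without naming animals. The p-values therefore reflect the spread between libraries alone, and that spread may be technical. Strain, sex and the number of mice pooled are not given in the sources used here.

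Introns are removed from pre-mRNA by the spliceosome, which is built from snRNPs: small nuclear RNAs held in rings of Sm proteins (most of the Snrp genes) with particle-specific partners. Among these partners are the other Snrp genes, such as Snrpa and Snrpc, and SF3, which seats the U2 snRNP on the branch point. SR proteins bind exons and favour the use of nearby splice sites, hnRNP proteins coat the transcript and often oppose them, and both groups also act in export, stability and translation. DEAD-box and DEAH-box helicases use ATP to remodel RNA and RNA-protein complexes at each of these steps and in the making of ribosomes.

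Values are the deposited signal after each column was rescaled to the same total of 23116.7 units. Molecules per library numbered 29696 to 71789, with the lung CD244-negative libraries the shallowest (29696 to 32196). A single molecule was worth 0.322 to 0.408 units in the thymus libraries, 0.449 to 0.544 in the CD244-positive and 0.718 to 0.778 in the CD244-negative lung libraries. The 105 genes together had 418.67 to 970.83 molecules in a library. A gene was tested where its value exceeded 1 unit in at least 3 libraries: 5199 genes passed, among them 78 of the 105. The 27 others are 15 DEAD-box and 7 DEAH-box helicases, 3 hnRNP genes, 1 SR protein and 1 snRNP gene. Ddx4, Ddx25 and Snrpn had no molecule in any library, and the highest of the 27, Ddx43 and Ddx55, had 14 molecules each over all 12. Fold changes below are differences of log2(value + 1) with their standard error (SE), which understate the change of low genes, and adjusted p-values are from limma, corrected over all 5199 genes.

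Markers of iNKT cells such as Zbtb16 and Tbx21 summed to 17.9 to 35.9 molecules per 10000, and no gene of that list or of the T cell receptor complex was at 0 in all libraries of a group, but the lung CD244-positive libraries stood apart. Summed myeloid markers were 90.3, 182 and 145 molecules per 10000 in them, against 1.68 to 5.31 in the 9 other libraries, and all 14 of these markers rose between the lung subsets. In the lung CD244-negative libraries 9 of the 14, among them Lyz2, C1qa, Adgre1 and Cd14, were at 0, and 9 were at 0 in each thymus group. A marker at 0 in all of these groups met the filter only through the lung CD244-positive libraries, so its rise followed from the filter. B cell and MHC class II markers summed to 48.9 to 126 per 10000 in lung CD244-positive and 0 to 0.621 elsewhere, and T cell receptor complex genes to 12.9 to 24.2 against 26.5 to 40.0 in the other libraries. Immediate early genes of stimulation and dissociation also differed: 9.46 to 11.7 per 10000 in thymus, 64.7 to 81.0 in the CD244-positive and 37.5 to 42.2 in the CD244-negative lung libraries. Replicates differed more in lung CD244-positive cells (chi-square per degree of freedom 1.65 to 1.70 between pairs) than in the other groups (1.09 to 1.23). In such bulk libraries, fewer cells of a type and less RNA per cell cannot be told apart.

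The 105 genes together made up between 115 and 145 molecules per 10000 in every library. They summed to 115, 130 and 124 molecules per 10000 in CD244-positive cells of the thymus (123 ± 7.51, SD, n = 3) and to 133, 145 and 125 in its CD244-negative cells (135 ± 9.95). In lung the sums were 142, 141 and 143 in CD244-positive (142 ± 1.49) and 142, 139 and 139 in CD244-negative cells (140 ± 1.68). The lung libraries lay above all thymus CD244-positive libraries and within the range of the thymus CD244-negative ones. On the deposited scale, where lung columns total less than thymus columns, the order is the opposite: 143 and 157 in the thymus subsets, 119 and 117 in those of the lung.

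The sums differed in direction between role groups. SR proteins summed to 11.7 ± 1.01 and 13.3 ± 2.97 per 10000 in thymus CD244-positive and CD244-negative cells and to 17.0 ± 1.59 and 15.9 ± 1.56 in lung. DEAD-box helicases went from 32.2 ± 3.03 and 33.6 ± 3.24 in thymus to 40.4 ± 3.54 and 41.4 ± 2.86 in lung, with every lung library above every thymus library. In CD244-positive cells this was not a rise of most members. The median difference of the 21 tested genes was -0.01 there, with 10 above and 11 below 0. Ddx5, the gene with the most molecules, and Ddx3x rose by 0.72 and 1.01. In CD244-negative cells the median was 0.24, with 13 above and 8 below 0. The snRNP core proteins were lower in lung, at 15.6 ± 3.06 and 15.8 ± 1.77 against 20.2 ± 1.40 and 20.2 ± 1.59, though 1 lung CD244-positive library (19.0) lay within the thymus range. Here Snrpg and Snrpf had the most molecules, and the median difference of the 11 tested genes was -0.21 in CD244-positive and -0.15 in CD244-negative cells. The hnRNP proteins, at 42.9 to 50.9 as group means, and the SF3 complex, at 9.40 to 11.1, overlapped between tissues. DEAH-box helicases summed to 6.70 ± 1.03, 8.18 ± 0.11, 8.43 ± 0.81 and 6.37 ± 1.24 in the order of the groups given above. The direction of the DEAD-box sums depends on the scaling: unscaled they are 37.4 and 39.0 in thymus and 33.8 and 34.6 in lung. That of the SR sums does so in CD244-negative cells, at 15.5 in thymus and 13.3 in lung unscaled and 13.9 in both with TMM scaling, while in CD244-positive cells they stay higher in lung unscaled (14.2 against 13.7). The lower snRNP sums in lung are kept in CD244-negative cells under all 5 scalings tried, and in CD244-positive cells under 4, the exception being scaling by the T cell receptor complex list (26.5 in lung, 20.9 in thymus).

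**Figure D1:**
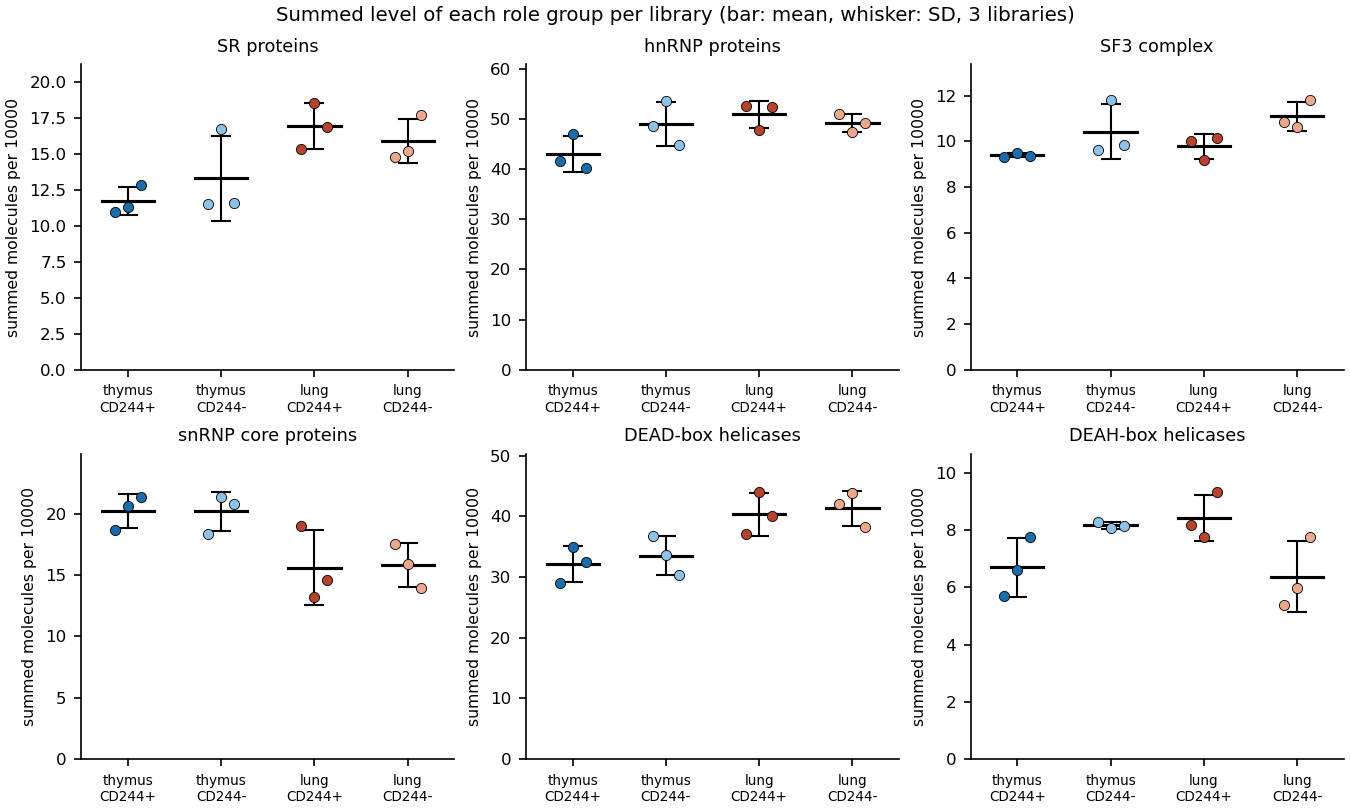
Summed molecules per 10000 for the 6 role groups (vertical axes, starting at 0) in each of the 12 libraries (points), with the mean and SD of 3 libraries per group. DEAD-box sums are higher and snRNP core sums mostly lower in the lung libraries, while SF3 sums overlap.

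The plot of all tested members by library shows how small most differences were beside the spread between replicates. Within groups, counts of the 78 genes varied about as counting error predicts, with a median chi-square per degree of freedom of 0.959 against 0.999 over all tested genes. Hnrnpm, which binds GU-rich RNA, varied most (2.98), followed by Ddx3y (2.40) and Ddx5 (2.29).

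**Figure D2:**
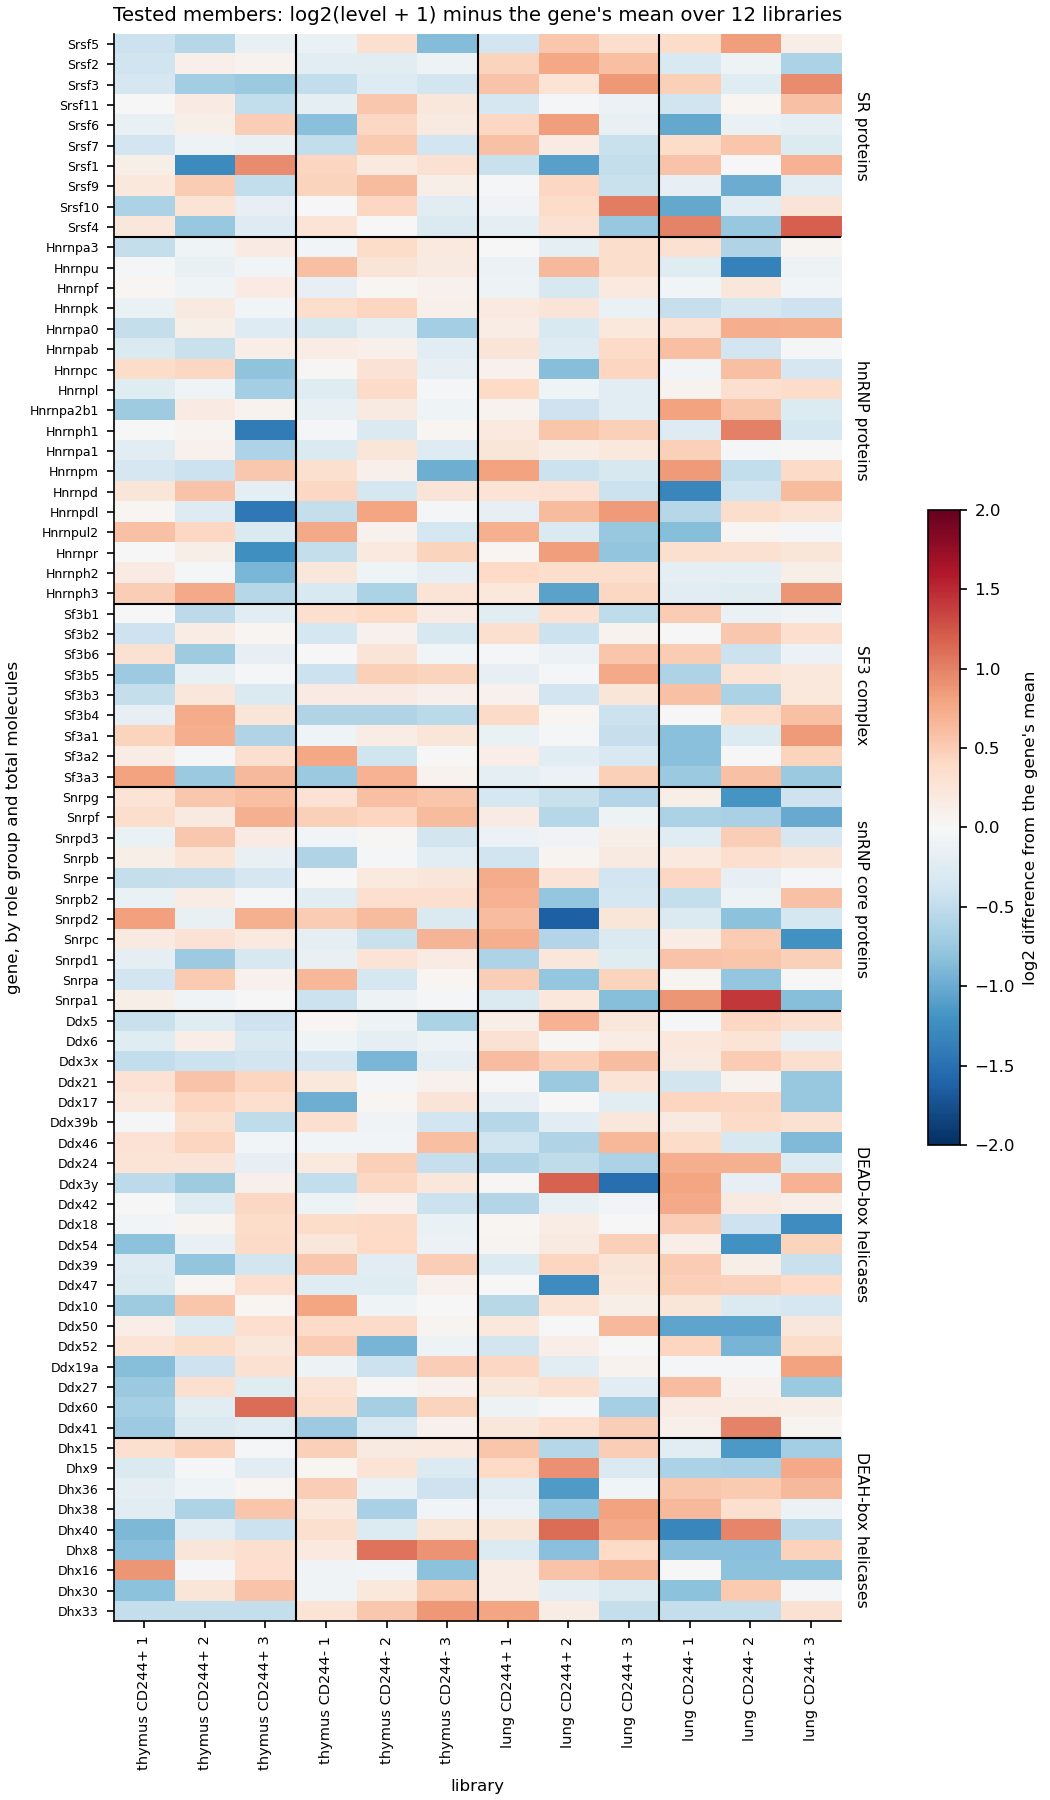
Each row is 1 of the 78 tested genes, grouped by role and ordered by total molecules, and each column 1 library. Colour gives log2(level + 1) minus the gene's mean over 12 libraries, from blue (lower) to red (higher), limited to ±2. Ddx3x is blue in all 6 thymus and red in all 6 lung libraries, and Srsf3 (blue, then red), Snrpg and Snrpf (red, then blue) show a like split with 1 lung library each as an exception.

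Lung and thymus were compared within each subset, which asks how the same iNKT subset differs between tissues. In CD244-positive cells Ddx5, Srsf3 and Ddx3x rose in lung and Snrpg fell. In CD244-negative cells Hnrnpa0 rose and Snrpf, Snrpg and Hnrnpu fell. Of the 78 genes, 3 rose and 1 fell in CD244-positive cells (5.13%), where 10.9% of all tested genes passed the threshold (6.96% higher, 3.96% lower). In CD244-negative cells 1 rose and 3 fell (5.13%), where 5.98% of all genes passed (3.10% higher, 2.89% lower). EdgeR on the recovered molecules of 9 libraries called 4 of 31 members in each subset, beside 25.3% and 19.1% of the 1165 genes it tested. By role, the calls in CD244-positive cells were 1 of 10 SR, 1 of 11 snRNP core and 2 of 21 DEAD-box genes, and in CD244-negative cells 2 of 18 hnRNP and 2 of 11 snRNP core genes. The median difference was 0.06 and -0.07 in the 2 subsets, against 0.00 and -0.03 over all tested genes. All 3 lung libraries lay outside the thymus range for 15 of 78 genes in each subset (19.2%), compared with 26.1% and 20.4% of all tested genes. On the deposited scale, 0 rose and 3 fell in CD244-positive cells and 0 rose and 7 fell in CD244-negative cells, so the split between higher and lower calls rests on rescaling the columns. Ddx5, Srsf3 and Ddx3x stayed above 0 there in CD244-positive cells, at 0.26, 0.77 and 0.59, but did not pass (adjusted p = 0.38, 0.1 and 0.173).

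Averaging the tissue difference over both subsets, a comparison added after seeing the data, gave 5 higher and 2 lower genes of 78 (8.97%), with 14.2% of all tested genes past the threshold (8.16% higher, 6.02% lower). EdgeR called 7 of 31, beside 30.6% of its tested genes. By limma these were Srsf3, Srsf5, Hnrnpa0, Ddx5 and Ddx3x above and Snrpg and Snrpf below. The unscaled values gave 0 higher and 13 lower. For 65 of the 78 genes the 95% interval of the averaged difference lay within ±1 on the log2 scale.

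Among the SR proteins, Srsf3, a small SR protein that also takes part in mRNA export, had the widest averaged tissue difference of the 78 genes. Its level was 3.54, 2.55 and 2.45 units in the CD244-positive and 3.08, 3.80 and 3.46 in the CD244-negative thymus libraries, and 7.57, 5.98 and 9.44 in lung CD244-positive and 7.01, 3.83 and 10.05 in lung CD244-negative libraries. Every lung library lay above every thymus library of its subset, but in CD244-negative cells the lowest lung value barely passed the highest thymus value. The difference was 1.16 ± 0.32 in CD244-positive cells (adjusted p = 0.00863), 0.76 ± 0.32 in CD244-negative cells (adjusted p = 0.18) and 0.96 ± 0.23 averaged (adjusted p = 0.0013). Without lung CD244-positive library 3 the first of these missed the threshold (1.02, adjusted p = 0.0865). Srsf5, another SR protein with roles in exon recognition, passed the threshold in the averaged comparison alone (0.61 ± 0.22, adjusted p = 0.047). Its thymus values ran from 3.08 to 8.30 units and its lung values from 4.73 to 12.27, so the tissues overlapped, and the call was lost in 8 of the 12 fits that left out 1 library, with adjusted p up to 0.206. Srsf11, also among the 4 SR genes with the most molecules, differed by -0.05 ± 0.33 in CD244-positive and -0.12 ± 0.33 in CD244-negative cells.

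Hnrnpa0, an hnRNP protein that binds AU-rich elements in mRNA, rose in lung in CD244-negative cells. Levels were 6.17, 6.91 and 4.61 units in thymus and 10.12, 13.80 and 13.64 in lung, without overlap, a difference of 0.97 ± 0.27 (adjusted p = 0.0163). In CD244-positive cells the values were 5.47, 8.75 and 6.53 in thymus and 8.99, 6.25 and 9.44 in lung, which overlap (0.22 ± 0.27, adjusted p = 0.728). The test of the difference between these effects gave -0.75 ± 0.39 (adjusted p = 0.399). In CD244-negative cells the call did not survive leaving out thymus library 3 (0.83, adjusted p = 0.121), lung library 2 (0.90, adjusted p = 0.0639) or lung library 3 (0.91, adjusted p = 0.0652). The averaged difference, 0.60 ± 0.19 (adjusted p = 0.0255), was lost in 5 of 12 such fits (adjusted p up to 0.0841). TMM scaling, which sets libraries to a common typical gene, also ended both calls (0.74, adjusted p = 0.102 in CD244-negative cells, and 0.47, adjusted p = 0.0961 on average), as did quantile normalization.

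Hnrnpu, a large nuclear-matrix hnRNP protein also known as SAF-A, fell in lung CD244-negative cells. Its level was 14.73, 11.41 and 10.77 units in thymus and 7.78, 3.07 and 8.62 in lung, again without overlap (-0.91 ± 0.27, adjusted p = 0.0294). In CD244-positive cells it was 9.02, 8.38 and 8.98 in thymus and 8.52, 15.22 and 12.13 in lung (0.37 ± 0.27, adjusted p = 0.505). The call was lost without thymus CD244-negative library 1 (-0.79, adjusted p = 0.193), 2 (-0.96, adjusted p = 0.0638) or 3 (-0.996, adjusted p = 0.0543) and without lung CD244-negative library 2, when it was -0.52 (adjusted p = 0.296), and with the 6 CD244-negative libraries fitted alone (adjusted p = 0.0735). Other abundant hnRNP genes moved less: Hnrnpf, which binds runs of G, differed by -0.11 ± 0.25 and 0.05 ± 0.25, with 95% intervals inside ±1. For Hnrnpk, a poly(C)-binding protein, the values were 0.11 ± 0.26 and -0.69 ± 0.26 (adjusted p = 0.103 in CD244-negative cells). Values of Hnrnpa3 and Hnrnpa1 were not whole numbers of molecules in 8 and 11 of 12 libraries; both genes have near-identical copies in the genome among which reads can be split, and are uncertain. Hnrnpa3 differed by 0.18 ± 0.22 and -0.25 ± 0.22.

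None of the 9 SF3 subunits passed the threshold between tissues by limma, in either subset or on average, and 0 had an unadjusted p under 0.05 in CD244-positive cells, 1 in CD244-negative cells and 0 on average. Of all 5199 tested genes, 1075, 910 and 1320 had such a p in these comparisons. Sf3b1, the branch-point platform of the U2 snRNP, differed by 0.11 ± 0.29 and -0.20 ± 0.29. Sf3b2, its partner in SF3b, differed by 0.06 ± 0.31 and 0.48 ± 0.31. For the small subunits Sf3b5 and Sf3b6 the differences were 0.49 ± 0.40 and 0.33 ± 0.38 in CD244-positive and -0.20 ± 0.40 and -0.08 ± 0.38 in CD244-negative cells.

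The snRNP core gave the 2 genes that fell on average, both of them Sm ring proteins. Snrpg (SmG) was at 12.24, 14.94 and 15.52 units in the CD244-positive and 12.33, 15.56 and 15.00 in the CD244-negative thymus libraries, against 7.57, 7.07 and 6.29 in lung CD244-positive and 10.90, 3.83 and 7.18 in lung CD244-negative libraries. All lung values lay below all thymus values. It fell by 0.93 on the log2 scale in CD244-positive cells (SE 0.26, adjusted p = 0.00998) and by 0.97 in CD244-negative cells (SE 0.26, adjusted p = 0.0128), and by 0.95 on average (SE 0.19, adjusted p = 7.83e-05). On average the call held in each of the 26 other settings, with adjusted p up to 0.033. Within the subsets it was lost without thymus CD244-positive library 2 or 3 (adjusted p = 0.0539 and 0.0612), and without thymus CD244-negative library 2 or 3 or lung CD244-negative library 2 (adjusted p = 0.0735, 0.0646 and 0.17). With values scaled by the T cell receptor complex list the difference in CD244-positive cells was -0.27 (adjusted p = 0.6).

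Snrpf (SmF), which sits in the same ring, was at 7.88, 7.61 and 8.84 units in thymus CD244-negative and 3.11, 3.07 and 2.15 in lung CD244-negative libraries, with no overlap. It fell by 1.28 on the log2 scale (SE 0.31, adjusted p = 0.00336), and this call held in all 12 fits without 1 library. In CD244-positive cells the values were 7.08, 6.19 and 9.39 in thymus and 6.15, 3.26 and 4.94 in lung, also without overlap but closer (-0.58 ± 0.31, adjusted p = 0.278). The averaged difference was -0.93 ± 0.22 (adjusted p = 0.000981). Not all Sm genes followed: Snrpd3 differed by -0.21 ± 0.30 and 0.09 ± 0.30, and Snrpb by -0.13 ± 0.32 and 0.55 ± 0.32. Of the 11 tested snRNP genes, 9 had a difference below 0 in CD244-positive and 7 in CD244-negative cells, and 1 and 2 of these passed.

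Ddx5 (p68), a DEAD-box helicase that takes part in splicing and acts as a transcriptional coregulator, rose in lung CD244-positive cells. It was at 20.61, 24.05 and 21.23 units in thymus CD244-positive and 31.23, 47.03 and 33.71 in lung CD244-positive libraries, without overlap (0.72 ± 0.18, adjusted p = 0.00315). In CD244-negative cells the values were 29.46, 26.62 and 18.07 in thymus and 28.02, 38.34 and 35.90 in lung, which overlap (0.46 ± 0.18, adjusted p = 0.137). Averaged, the difference was 0.59 ± 0.13 (adjusted p = 0.00041). Lung CD244-positive library 2 was the highest, and without it the difference in CD244-positive cells was 0.55 (adjusted p = 0.0705).

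Ddx3x, an X-linked helicase that helps ribosomes start on structured mRNAs, rose in lung CD244-positive cells. Its values were 4.51, 4.74 and 4.90 units in the CD244-positive and 5.14, 3.11 and 5.77 in the CD244-negative thymus libraries, 10.88, 9.79 and 10.79 in lung CD244-positive and 7.78, 9.97 and 8.62 in lung CD244-negative libraries. The tissues did not overlap in either subset. The difference was 1.01 ± 0.28 in CD244-positive cells (adjusted p = 0.00949) and 0.91 ± 0.20 on average (adjusted p = 0.000465), and the difference in CD244-negative cells, 0.81 ± 0.28, did not pass (adjusted p = 0.0785). Leaving out lung CD244-positive library 3 gave 0.99 (adjusted p = 0.0504).

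Sorted by role, 1 of the 5 tested helicases of export, translation and decay passed in CD244-positive cells, namely Ddx3x, and the list summed to 7.72 ± 0.79 and 8.77 ± 0.80 per 10000 in thymus and 12.4 ± 0.66 and 11.9 ± 0.87 in lung. Unscaled, this sum is 8.98 in thymus and 10.4 in lung in CD244-positive cells and turns in CD244-negative cells (10.2 in thymus, 9.93 in lung). Ddx6, a P-body helicase of mRNA storage and decay, belongs to it and differed by 0.30 ± 0.24 and 0.24 ± 0.24. None of the 8 spliceosomal and none of the 9 ribosome-biogenesis helicases passed by limma in either subset (in CD244-positive cells 0 and 0 had an unadjusted p under 0.05, in CD244-negative cells 2 and 0). Ddx21, a nucleolar helicase of ribosomal RNA synthesis, had values of -0.59 ± 0.33 and -0.43 ± 0.33. Dhx15, which takes spliceosomes apart, had -0.09 ± 0.37 and -0.97 ± 0.37 (adjusted p = 0.116 in CD244-negative cells). Dhx9, an RNA helicase with roles in transcription, had 0.52 ± 0.38 and -0.19 ± 0.38, and Dhx38, a helicase of the catalytic steps of splicing, 0.06 ± 0.41 and 0.44 ± 0.41.

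**Figure D3:**
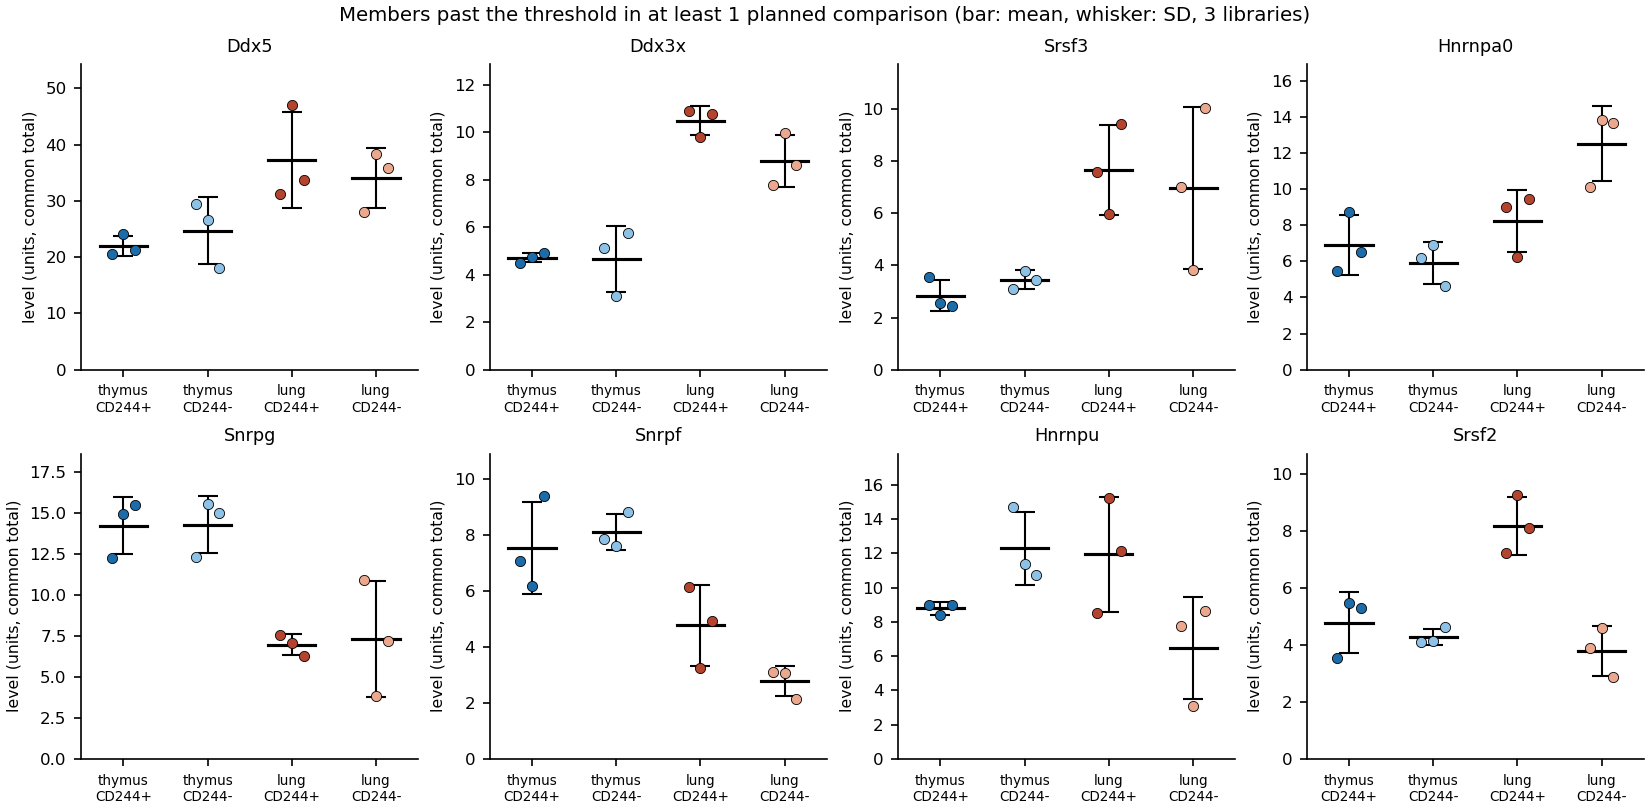
Level in units at the common total (vertical axes, starting at 0) of the 8 genes that passed the threshold in at least 1 planned comparison, per library (points), with mean and SD of 3 libraries per group. Ddx3x lies between 3.11 and 5.77 units in thymus and between 7.78 and 10.88 in lung, Snrpg between 12.24 and 15.56 and between 3.83 and 10.90.

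Myeloid RNA and immediate early genes moved with the tissue comparison in CD244-positive cells: 14 of 14 myeloid markers and 13 of 15 immediate early genes rose there. In the thymus CD244-positive libraries 9 of the 14 and 8 of the 16 listed immediate early genes were at 0. Such genes met the filter only through other groups. Of the iNKT cell markers 4 of 8 fell and 1 rose there, and 3 of 11 T cell receptor complex genes fell. Of the 3 tested NK cell markers 1 rose, Tyrobp, which is also among the 14 myeloid markers, and 2 did not pass. The part of all these genes in the CD244-positive results was not tested. In CD244-negative cells the myeloid sum was 1.68 to 5.31 per 10000 in lung and 3.49 to 3.89 in thymus, and none of the 14 markers passed. Snrpg (-0.97), Snrpf (-1.28), Hnrnpu (-0.91) and Hnrnpa0 (0.97) passed in these cells, while Ddx3x (0.81), Srsf3 (0.76) and Ddx5 (0.46) did not. The genes were picked by the tissue comparisons, which use these same values. In CD244-negative cells 5 of 15 immediate early genes rose as well, 2 of 8 iNKT cell markers fell, 1 of 11 T cell receptor complex genes rose, and the lung libraries were the shallowest. Epithelial markers moved with tissue in both subsets: they summed to 0 to 0.166 per 10000 in thymus and 1.02 to 3.70 in lung. Of the 7, 6 were at 0 throughout each thymus group and 2 throughout each lung group. The 1 marker that was tested differed by 0 between the thymus subsets and met the filter only through lung libraries. Its rise, by 1.71 in CD244-positive and 2.16 in CD244-negative cells, therefore followed from the filter. The part of these genes in the results was not tested. When molecules were thinned to the shallowest library, Ddx3x missed the threshold in CD244-positive cells (0.61, adjusted p = 0.369) and on average (0.60, adjusted p = 0.128), and in CD244-negative cells Snrpf (-1.08, adjusted p = 0.138), Snrpg (-0.98, adjusted p = 0.0561), Hnrnpa0 (0.66, adjusted p = 0.373) and Hnrnpu (-0.72, adjusted p = 0.294) did. With lung CD244-positive library 1, which had the lowest myeloid sum of its group, standing alone for the group, the differences in CD244-positive cells were 1.06 for Ddx3x, 1.17 for Srsf3, 0.49 for Ddx5 and -0.82 for Snrpg. These are values of a lone library with no spread of its own.

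The tissue differences in the 2 subsets share no library, so they can be set side by side. Across the 78 genes they had a Pearson r of 0.19 and the same sign in 40 (51.3%). Across all 5199 tested genes r was 0.33 and the sign was shared by 58.4%. These are descriptions over genes measured in the same libraries, which are not independent.

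**Figure D4:**
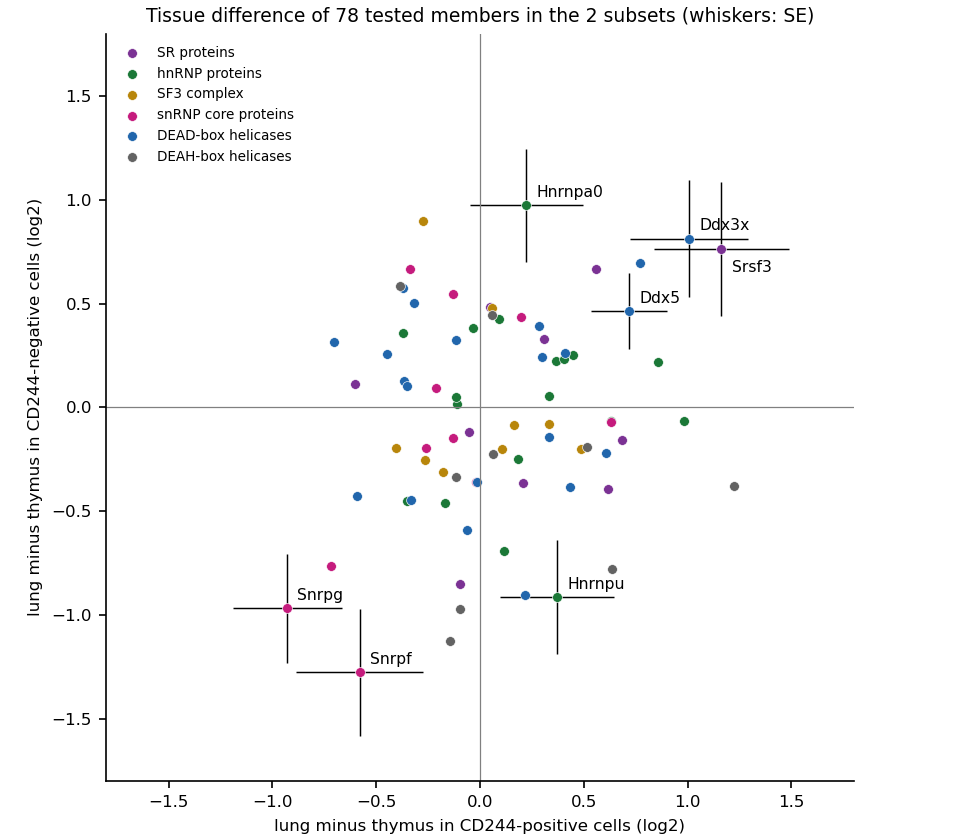
Lung minus thymus on the log2(level + 1) scale in CD244-positive cells (horizontal axis) and CD244-negative cells (vertical axis) for the 78 tested genes, coloured by role; whiskers are SE for the 7 genes that passed in either subset. Ddx3x, Srsf3 and Ddx5 lie in the upper right, Snrpg and Snrpf in the lower left, Hnrnpu has opposite signs, and the rest form a cloud around 0.

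The promoters of the 5 genes with the smallest p in the averaged tissue comparison are shown because these genes carry the tissue result. They were picked after their values were seen. Each is the 250 bases before the RefSeq start (build GRCm38.p6), 5′ to 3′ on the gene's strand. Capitals mark TATAAA (the TATA box) and TGACG (the core of the CRE element bound by CREB and ATF factors), searched on both strands, so that TGACG read from the other strand appears as CGTCA. The first 3 genes were higher in lung. Ddx5 lies on chromosome 11 (minus strand, chr11:106788495-106788744), Ddx3x on X (plus strand, chrX:13280772-13281021) and Srsf3 on 17 (plus strand, chr17:29032410-29032659). Snrpg on chromosome 6 (plus strand, chr6:86371290-86371539) and Snrpf on 10 (minus strand, chr10:93589659-93589908) were lower.
Ddx5: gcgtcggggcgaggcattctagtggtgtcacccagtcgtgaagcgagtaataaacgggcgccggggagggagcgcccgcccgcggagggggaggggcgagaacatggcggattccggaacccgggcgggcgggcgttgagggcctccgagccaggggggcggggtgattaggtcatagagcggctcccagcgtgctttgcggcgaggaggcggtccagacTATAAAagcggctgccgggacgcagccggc
Ddx3x: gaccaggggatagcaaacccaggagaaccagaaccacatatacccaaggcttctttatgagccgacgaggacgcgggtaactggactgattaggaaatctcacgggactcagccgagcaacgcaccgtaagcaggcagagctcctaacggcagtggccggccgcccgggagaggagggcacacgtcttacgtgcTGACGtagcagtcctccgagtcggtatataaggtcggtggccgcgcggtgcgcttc
Srsf3: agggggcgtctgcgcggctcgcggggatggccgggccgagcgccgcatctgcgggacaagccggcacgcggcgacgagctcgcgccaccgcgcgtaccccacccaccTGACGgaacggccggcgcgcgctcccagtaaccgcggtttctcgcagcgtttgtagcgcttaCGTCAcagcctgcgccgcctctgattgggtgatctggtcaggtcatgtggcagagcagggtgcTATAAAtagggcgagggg
Snrpg: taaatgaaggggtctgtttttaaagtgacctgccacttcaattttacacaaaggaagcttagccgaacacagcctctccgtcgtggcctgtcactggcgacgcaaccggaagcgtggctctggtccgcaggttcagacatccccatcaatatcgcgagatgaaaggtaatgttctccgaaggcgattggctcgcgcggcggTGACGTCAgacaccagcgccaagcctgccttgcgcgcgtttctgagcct
Snrpf: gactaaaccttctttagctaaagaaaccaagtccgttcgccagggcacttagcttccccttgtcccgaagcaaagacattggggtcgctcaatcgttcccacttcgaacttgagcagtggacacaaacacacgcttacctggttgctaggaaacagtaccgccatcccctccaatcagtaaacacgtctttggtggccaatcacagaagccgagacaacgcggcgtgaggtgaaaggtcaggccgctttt
The Ddx5 and Srsf3 windows each held TATAAA 1 time. The CRE core TGACG was found 1 time for Ddx3x, 2 times for Srsf3 and 2 times for Snrpg, where both matches overlap in TGACGTCA, and not for Ddx5 or Snrpf. CCAAT, searched on both strands and not capitalised, was found 3 times for Snrpf and 1 time each for Srsf3 and Snrpg. Over all 27025 genes with such a window, 17.9% held TGACG, 12.8% TATAAA and 34.2% CCAAT. Among the 4112 tested genes with a window the shares were 30.8%, 6.35% and 35.1%, and among the 70 tested members with one 45.7%, 7.14% and 42.9%. CpG dinucleotides, which TGACG contains, had a median of 19 per window in the tested members, 18 in the tested genes and 6 in all windows. A match of letters is a description and not a binding site.

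SR protein genes are known for exons that send their own transcripts to nonsense-mediated decay, and the annotation lists such transcripts. In GENCODE M21, 9 of the 10 tested SR genes have at least 1 transcript of that class, as have 31 of the 78 tested members (39.7%) and 1532 of 5036 tested protein-coding genes (30.4%). Among DEAD-box helicases it was 3 of 21. A retained-intron transcript is annotated for 78.2% of the members and 66.3% of the tested genes. The molecules were counted per gene, so the values above do not separate productive from decaying transcripts.

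CD244-positive and CD244-negative cells were compared within lung, which asks how the subsets differ at this site. Srsf2 and Hnrnpu rose in CD244-positive cells and no member fell by limma. These 2 of 78 (2.56%) stand beside 9.89% of all tested genes (6.44% higher, 3.44% lower). At an unadjusted p under 0.05 were 11 of the 78 members and 1118 of all 5199 tested genes. In simulated data this comparison called more unchanged genes than the threshold allows, so its adjusted p-values, over all genes too, may be too small. EdgeR on the recovered molecules of 9 libraries tested 31 members and called 0 where it called 15.5% of all genes, with 4 at an unadjusted p under 0.05. The median difference was 0.05, against 0.00 over all tested genes, and 14 of 78 genes had groups without overlap (17.9%, against 21.4%).

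Srsf2 (SC35), an SR protein of nuclear speckles that promotes exon inclusion, was at 7.22, 9.24 and 8.09 units in lung CD244-positive and 3.89, 4.60 and 2.87 in lung CD244-negative libraries. The groups did not overlap, and the difference was 0.95 ± 0.31 (adjusted p = 0.0354). In thymus it was 3.54, 5.47 and 5.31 in CD244-positive and 4.11, 4.15 and 4.61 in CD244-negative libraries (0.11 ± 0.31, adjusted p = 1). The lung call was lost without lung CD244-positive library 1, 2 or 3 (adjusted p = 0.0644, 0.164 and 0.13) and without lung CD244-negative library 1 or 3 (adjusted p = 0.0541 and 0.118). With the 6 lung libraries fitted alone it was also lost (adjusted p = 0.087), as it was with sample weights (adjusted p = 0.116). Hnrnpu, with the lung values given above, differed by 0.85 ± 0.27 (adjusted p = 0.0332), though the groups overlapped. Its lowest value, 3.07 units in lung CD244-negative library 2, is 4 molecules, and without that library the difference was 0.46 (adjusted p = 0.322). It also missed the threshold without lung CD244-positive library 2 (0.67, adjusted p = 0.208) or 3 (0.83, adjusted p = 0.1), with the 6 lung libraries alone (adjusted p = 0.0817) and with sample weights (adjusted p = 0.0899).

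Members outside the threshold in lung included both directions. Dhx36, which unwinds G-quadruplex RNA, was at 1.89, 0.54 and 2.25 units in CD244-positive and 3.89, 3.83 and 4.31 in CD244-negative libraries (-1.04 ± 0.37, adjusted p = 0.0662). By role, 1 of 10 SR and 1 of 18 hnRNP genes passed, and none of 9 SF3, 11 snRNP core, 21 DEAD-box or 9 DEAH-box genes did, of which 0, 0, 2 and 4 had an unadjusted p under 0.05. Snrpf and Snrpg differed by 0.59 ± 0.31 and 0.03 ± 0.26. The myeloid, B cell and MHC class II markers described above rose with this comparison, as did 9 of 15 immediate early genes, and 4 of 11 T cell receptor complex genes fell. Of the 3 tested NK cell markers 2 rose, and 1 of these, Tyrobp, is also among the myeloid markers. The NK cell list with Tyrobp summed to 8.34 to 13.2 per 10000 in CD244-positive and 0.311 to 0.995 in CD244-negative libraries. The part of all these genes in the results was not tested. With lung CD244-positive library 1 alone for its group, Srsf2 differed by 0.80 and Hnrnpu by 0.44, values of a lone library. With values scaled by the T cell receptor complex list, 28 members were higher and 0 lower, a setting that itself moves the median of all tested genes up by 0.68 on the log2 scale.

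In thymus, no member passed the threshold between CD244-positive and CD244-negative cells by limma, where 0.269% of all tested genes did (0.212% higher, 0.0577% lower). Of the 78 genes, 2 had an unadjusted p under 0.05 by limma, beside 218 of all 5199 tested genes. EdgeR called 0 of 31 members (1.20% of all genes), with 0 at an unadjusted p under 0.05. The median difference was -0.10, against -0.01 over all tested genes, with 49 of 78 genes below 0. Groups did not overlap for 9 of the 78 and for 626 of all 5199 tested genes. The 95% interval lay within ±1 for 42 of the 78, and for the remainder a change of that size was not excluded.

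The members with the smallest p in thymus were Dhx33, Sf3b4 and Sf3b1, all with an adjusted p of 1. Dhx33, a helicase of ribosome biogenesis, had 0 molecules in all 3 CD244-positive libraries and 2, 3 and 4 in the CD244-negative ones, at the limit of what these libraries can show, since a count of 0 allows up to 3 molecules in a library. Sf3b4, which holds the U2 snRNP near the branch point, was at 1.29, 3.28 and 2.04 units in CD244-positive and 0.69, 0.69 and 0.77 in CD244-negative libraries (0.85 ± 0.39). Sf3b1 was at 6.76, 4.46 and 5.72 against 8.91, 9.33 and 7.79 (-0.55 ± 0.29). Both pairs of groups are without overlap, and neither difference stood out among 5199 tests.

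The last comparison asked whether the CD244 difference is the same in both tissues. Hnrnpu was the 1 member of 78 (1.28%) that passed, where 3.60% of all tested genes did (2.98% higher, 0.616% lower). By limma 5 members had an unadjusted p under 0.05, beside 682 of all 5199 tested genes. EdgeR called 0 of 31 members (2.06% of all genes), with 2 at such a p. CD244-positive minus CD244-negative was -0.43 ± 0.27 for Hnrnpu in thymus, where the CD244-positive libraries (8.38 to 9.02 units) lay below the CD244-negative ones (10.77 to 14.73), and 0.85 ± 0.27 in lung. The change between them was 1.28 ± 0.39 (adjusted p = 0.0465). It was lost in 9 of the 12 fits that left out 1 library, namely each of the 6 thymus libraries, lung CD244-positive library 2 or 3 and lung CD244-negative library 2, with estimates of 0.89 to 1.51 over the 12 and adjusted p up to 0.207. Next came Dhx40 (1.60 ± 0.61, adjusted p = 0.166) and Dhx33 (1.41 ± 0.57, adjusted p = 0.21). Dhx40 had 0, 5 and 1 molecules in the lung CD244-negative libraries, and without library 2 of that group its difference was 2.23 (adjusted p = 0.015). With an interval inside ±1 for 8 of 78 genes, this comparison had the least precision.

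Ddx3x has a Y-linked counterpart, Ddx3y, and the libraries differed in sex-linked RNA. Ddx3y was at 0.97, 0.73 and 2.04 units in the CD244-positive and 1.03, 2.77 and 2.31 in the CD244-negative thymus libraries, 1.89, 5.44 and 0 in lung CD244-positive and 3.89, 1.53 and 3.59 in lung CD244-negative libraries, and passed the threshold in no comparison. Xist, the RNA that silences an X chromosome in female cells, was at 2.25 to 6.17 units in the thymus libraries, 8.99, 1.63 and 13.03 in lung CD244-positive and 0 in all 3 lung CD244-negative libraries, where 0 allows up to 2.15 to 2.34 units. Lung CD244-positive library 3 had no molecule of Ddx3y, Eif2s3y, Kdm5d or Uty, all Y-linked. Both kinds of RNA were present in all 6 thymus libraries. Ddx3x was 10.88, 9.79 and 10.79 units across lung CD244-positive libraries whose Xist ran from 1.63 to 13.03, and 7.78 to 9.97 where Xist was at 0. Comparisons that use the lung CD244-negative libraries set libraries without a molecule of Xist against libraries with it. The part of sex was not tested, in the Ddx3x difference or in the calls of Hnrnpu, Srsf2, Hnrnpa0, Snrpf and Snrpg that use those libraries.

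**Figure D5:**
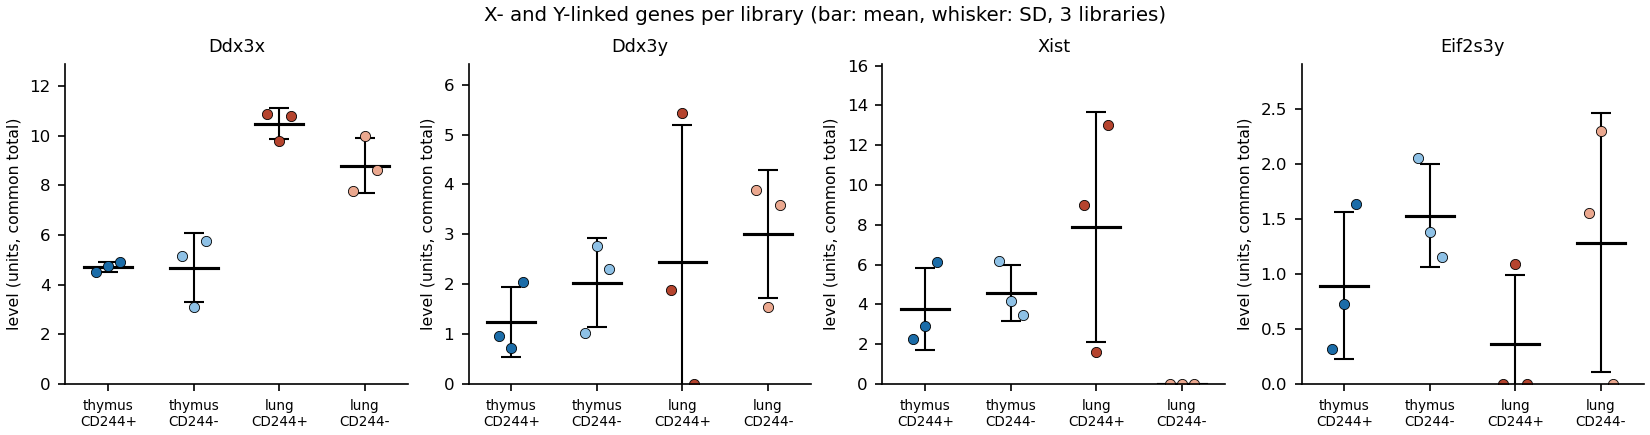
Level in units at the common total (vertical axes, starting at 0) of the X-linked Ddx3x and Xist and the Y-linked Ddx3y and Eif2s3y per library (points), with mean and SD of 3 libraries per group. Xist is at 0 in the 3 lung CD244-negative libraries and Ddx3y at 0 in lung CD244-positive library 3, while Ddx3x is above 7.78 or at it in all 6 lung libraries.

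Other parts of the splicing machinery were read in the same way, against the shares of all tested genes given above (10.9% and 5.98% between tissues, 9.89% in lung and 0.269% in thymus). Of 48 tested spliceosome components outside the 105 genes, 0 rose and 1 fell between tissues in CD244-positive cells, namely Bud31 (-1.25 ± 0.42, adjusted p = 0.0396), and 1 rose and 1 fell in CD244-negative cells. The last were Isy1, a component of the catalytic spliceosome (1.31 ± 0.39, adjusted p = 0.0253), and Lsm5, a ring protein of the U6 snRNP. Lsm5 was at 1.37, 2.07 and 2.69 units in thymus CD244-negative libraries and at 0 in the 3 lung ones, where 0 allows up to 2.15 to 2.34 units. Bud31 was also low, with 12, 9 and 2 molecules in thymus CD244-positive and 2, 0 and 1 in lung CD244-positive libraries, and these groups overlapped. Between lung subsets Slu7, which helps choose the 3′ splice site, was lower in CD244-positive cells (-1.17 ± 0.40, adjusted p = 0.0488).

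Of 43 tested splicing regulators, 2 rose and 1 fell between tissues in CD244-positive cells and 0 passed in CD244-negative cells by limma (6 had an unadjusted p under 0.05). Clk1, a kinase that phosphorylates SR proteins, was at 4.19, 5.83 and 3.67 units in thymus CD244-positive and 11.8, 14.1 and 5.84 in lung CD244-positive libraries (1.001 ± 0.298, adjusted p = 0.016). Mbnl1, which regulates alternative exons, fell (-0.54 ± 0.18, adjusted p = 0.0396), and Qk, a STAR-family splicing regulator, rose (1.20 ± 0.40, adjusted p = 0.039). Mbnl1 was also lower in CD244-positive than in CD244-negative cells of the lung (-0.59 ± 0.18, adjusted p = 0.024). In the averaged comparison Clk1 (0.86 ± 0.21, adjusted p = 0.00194) and Qk were among the genes that rose, and Mbnl1 and Tia1, a stress-granule protein (-0.90 ± 0.31, adjusted p = 0.0379), fell. Tia1 had only 0, 1 and 3 molecules in lung CD244-positive and 4, 0 and 0 in lung CD244-negative libraries, and the tissues overlapped. None of 15 exon-junction and export genes and none of 8 other RNA helicases passed in any comparison by limma, with 2 of each at an unadjusted p under 0.05 in lung. In thymus 0 genes of any of these 4 lists passed, with 0, 3, 0 and 1 at an unadjusted p under 0.05 in the order given.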

How the data were processed

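RNA of 12 libraries was measured with molecular barcodes in the reverse transcription primer and ERCC RNA in each tube, per the labels' protocols. The submitters' processing notes name STAR, without a version, and the mm10 build. The counting, annotation and scaling steps are not given in the sources used here. The deposited values are a signal per gene. Divided by 1 constant per library they give molecules, whole for 94.3% to 95.9% of nonzero values (tolerance 0.0001 molecules). Columns were rescaled to a common total. Genes above 1 unit in at least 3 libraries were tested on log2(value + 1) with limma 3.58.1 (R 4.3.3, trend and robust options, 1 model of 4 groups, two-sided, Benjamini-Hochberg over all tested genes, threshold 0.05). For 3 libraries against 3 the smallest exact permutation p is 0.1. EdgeR 4.0.16 (quasi-likelihood) was an alternative on recovered molecules of the 9 libraries whose whole steps could be checked. The other settings were other scalings, filters and pseudocounts, sample weights, a replicate block, the compared libraries alone, each library left out, thinning, and 2 chosen after seeing the data, as was the averaged tissue comparison. The test was tried on simulated data, where the lung CD244 comparison called more unchanged genes than the threshold allows, for a cause that was not found. The members and lists were chosen with earlier results of these data known. Genes are named by rule: members past the threshold in a planned comparison, up to 12 per direction; the 3 smallest p where fewer than 3 passed; the 4 with most molecules per role; Ddx3x and Ddx3y; and up to 3 per direction of each companion list. Others were named after their values were seen, and a result of a companion list is not reported here. All 105 members matched 1 gene in GENCODE M21 and 93 a RefSeq promoter window. The 95% intervals are limma's and cover the spread between libraries, while floors cover counting error only.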

Additional observations from a re-analysis of the deposited data

Results flagged for a closer look

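Hnrnpu differed in its CD244 effect between tissues by the test of that difference itself: CD244-positive minus CD244-negative was -0.43 ± 0.27 in thymus and 0.85 ± 0.27 in lung on the log2 scale, a change of 1.28 ± 0.39 (limma adjusted p = 0.0465). In thymus all 3 CD244-positive libraries lay below the CD244-negative ones, and in lung 2 of 3 CD244-positive libraries lay above all CD244-negative ones. The call was lost in 15 of 26 other settings, with estimates of 0.87 to 2.10 and adjusted p of 0.00238 to 0.681. No cause was tested.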

How the results depend on the processing

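The 24 named differences kept their direction in all settings in which they could be tested. Of the counts of members past the threshold, those in thymus were 0 higher and 0 lower in all 27 other settings and the interaction had 0 lower members in all 26. For the others, values follow where they moved by more than 1.5 times. With the deposited scale, the tissue counts became 0 higher and 3 lower in CD244-positive cells, 0 and 7 in CD244-negative cells and 0 and 13 averaged. TMM scaling gave 0 higher and 5 lower in CD244-negative cells and 3 higher averaged. Quantile normalization gave 0 higher in CD244-negative cells, and 3 higher and 5 lower averaged. With no filter the interaction and the lung CD244 comparison had 0 higher members and the averaged tissue comparison 3, and with the filter above 5 units the tissue comparison in CD244-negative cells had 2 higher. The interaction count was 0 with a pseudocount of 0.5, with edgeR, with thinned molecules, and with lung CD244-positive library 1 alone for its group, where the lone library is assumed to vary like the other groups. The lung CD244 count was 0 higher with sample weights, with the compared libraries alone, with edgeR and with library 1 alone. Thinning gave 1 higher and 1 lower in lung, 2 higher and 0 lower for tissue in CD244-negative cells and 2 higher averaged. Scaling by the T cell receptor complex list gave 6 higher in the interaction, 28 higher in lung, 19 higher and 0 lower for tissue in CD244-positive cells, 0 higher in CD244-negative cells and 1 lower averaged. Library 1 alone gave 0 higher and 0 lower for tissue in CD244-positive cells and 3 higher averaged. Leaving out 1 library at a time, the higher and lower counts ranged from 0 to 1 and 0 to 0 in the interaction, 0 to 2 and 0 to 2 in lung, 1 to 5 and 0 to 1 for tissue in CD244-positive cells, 0 to 1 and 1 to 4 in CD244-negative cells, and 3 to 6 and 2 to 3 averaged. No pairing by replicate number was seen: same-numbered libraries of different groups had correlations of -0.031 to 0.014 over 18 pairs, none over 0.1. Outside lung CD244-positive cells, replicates varied close to counting error, so such correlations cannot exclude shared animals or batches. With the replicate block the interaction count went from 1 to 0 (Hnrnpu 1.28, adjusted p = 0.0574), and no other count moved by more than 1.5 times.

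The members' sum per 10000 was 143, 157, 119 and 117 on the deposited scale in CD244-positive and CD244-negative cells of the thymus and then of the lung. In the lung groups it was 148 and 122 with TMM and 149 and 134 with median-ratio factors. Without 1 library it ranged from 120 to 127, 129 to 139, 141 to 143 and 139 to 140. The deposited scale moves the median of all genes by -0.28 and -0.26 in the tissue comparisons of CD244-positive and CD244-negative cells, TMM by 0.15 in lung, -0.13 for tissue in CD244-negative cells and 0.12 in the interaction, quantile normalization by -0.13 for tissue in CD244-positive cells, and the T cell receptor scaling by 0.11 in thymus, 0.68 in lung, 0.48 for tissue in CD244-positive cells and 0.54 in the interaction. Dhx40 passed the interaction with that last scaling (2.26, adjusted p = 0.0197). The causes were not tested. Depth limits the low members: 27 of 105 were not tested, and the median SE of a comparison within 1 tissue or subset was 0.386.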
